A study of Mus musculus with 21 samples.

Results

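Spdef, Creb3l1, Creb3l2, Creb3, Xbp1, Atf6, Atf4, Ddit3, Foxa1 and Foxa2 encode transcription factors of the secretory program, the set of genes with which a cell builds and runs its endoplasmic reticulum (ER) and Golgi. The 10 genes were taken by symbol, but with earlier results of these data known, and Spdef is also among the SCO markers used below. Of the 10, 9 have a row among the 31883 genes of the deposited table, and Foxa1 was not analysed here. Ddit3 has 2 rows, so the 9 genes fill 10 rows. All 10 rows passed the filter on low values (a mean normalized count that reaches 1 in one of the tissues), as 28150 genes did in all, and Foxa2 passed it only through the SCO.

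The libraries were made from the subcommissural organ (SCO) and the hippocampus of C57BL/6 mice on postnatal day 0 (P0), with 4 SCO and 5 hippocampus libraries. The SCO is an ependymal gland under the posterior commissure that releases glycoproteins, among them SCO-spondin, into the cerebrospinal fluid, and the hippocampus serves as the comparison tissue. The labels give no genotype or treatment beyond the strain and are silent on whether each sample is 1 animal, a pool or a repeat of another. The p-values below therefore measure only how these samples spread, and that spread may be technical. A further 12 of the 21 samples, from P60, were not analysed here.

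Spdef is an ETS family factor that drives the maturation of goblet and other mucus-secreting cells. Creb3, Creb3l1, Creb3l2 and Atf6 are made as ER membrane proteins whose cytoplasmic part is cut free by Golgi proteases and enters the nucleus. Xbp1 is activated by splicing of its mRNA by the ER sensor Ire1, while Atf4 and Ddit3 (CHOP) act downstream of the kinase Perk. The activity of these factors is therefore set largely after transcription, and gene-level mRNA values do not measure it. Foxa1 and Foxa2 are forkhead factors of endoderm and of the ventral midline of the neural tube.

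Depth ran from 35379988 to 64242533 reads in the SCO libraries and from 36787949 to 151009954 in the hippocampus libraries. Of 8 SCO markers, 6 were called higher in the SCO, and their summed normalized count, Spdef included, was 39040 to 73832 in the SCO against 1392 to 3281 in the hippocampus. Of 10 markers of hippocampal neurons, 9 were called lower in the SCO. Other cell types also differed between the tissues: the summed ependymal markers were 24352 to 43539 against 4119 to 9479, those of habenula and pretectum 28344 to 38741 against 5929 to 11376, and those of red blood cells 45987 to 79831 against 4234 to 27028. Microglial markers summed to 27187 to 36533 against 12164 to 19640 and endothelial markers to 14968 to 21483 against 7113 to 11176, again without overlap. Choroid plexus markers summed to 18667 to 23162 in SCO replicates 1 to 3, to 197891 in SCO replicate 4 and to 573 to 15886 in the hippocampus; 3 of the 11 tested were called higher, Kl had 0 reads in all SCO libraries and Kcnj13 in all hippocampus libraries. The part of these cell types in the results below was not tested unless a value is given. In bulk tissue, fewer cells of a type and less RNA per cell cannot be told apart.

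Of the 10 rows, Spdef alone was called, higher in the SCO, and none was called lower (limma, Benjamini-Hochberg adjusted p under 0.05 over all tested genes). The background was 1.71% of tested genes called higher and 1.34% called lower. At an unadjusted p under 0.05, 2 of the 10 rows passed, Spdef and Creb3l2, both higher in the SCO, beside 15.5% of all tested genes. By edgeR and by DESeq2 on the recovered reads, Spdef was again the single row called. The background was 1.07% of genes higher and 0.721% lower by edgeR, and 7.06% higher and 5.75% lower of the 21144 genes with an adjusted p from DESeq2. Spdef was also the single row in which every SCO library lay above every hippocampus library, which 4.78% of tested genes did, and no row lay below in every library, which 3.75% did. The median log2 fold change (the mean log2(value + 1) of the SCO libraries minus that of the hippocampus) was 0.28 over the 10 rows and -0.04 over all tested genes.

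**Figure D1:**
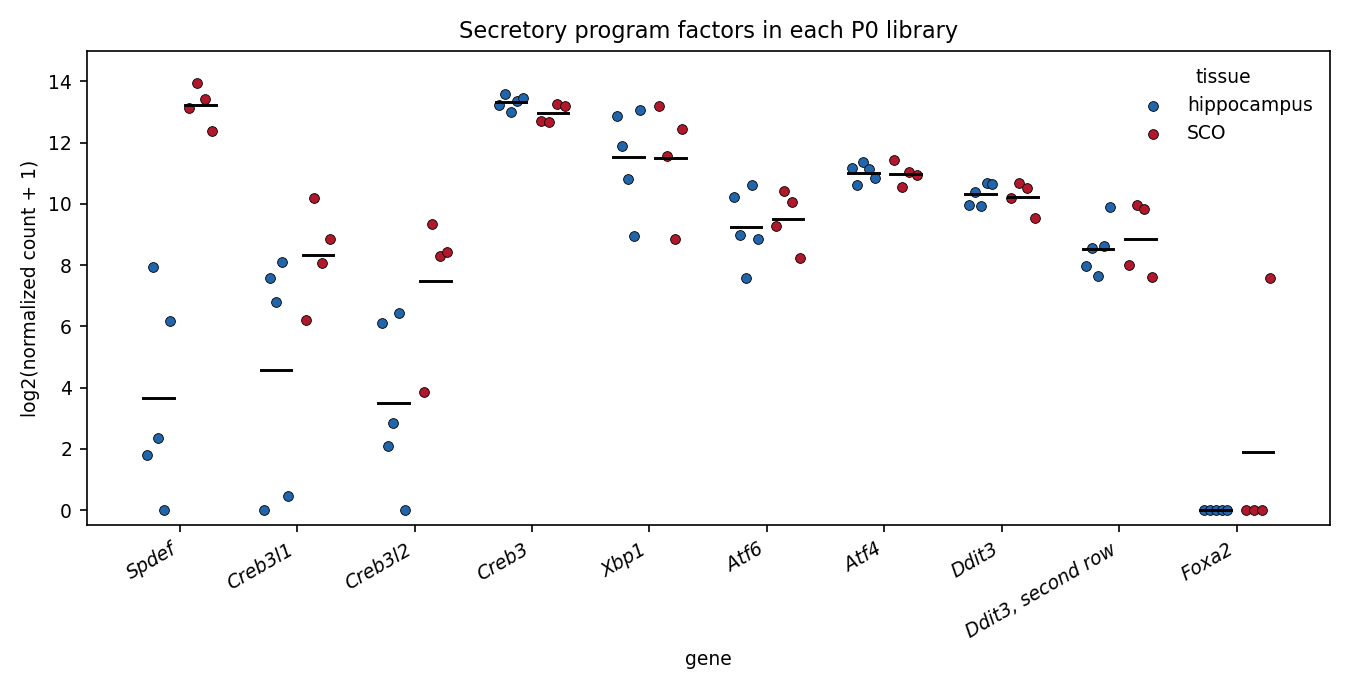
Each point is 1 library, with log2(normalized count + 1) on the vertical axis, the gene on the horizontal axis and a bar at the mean of the log2 values. Spdef separates the 4 SCO libraries from the 5 hippocampus libraries, Foxa2 has reads in 1 SCO library, and the points of Creb3l1, Creb3l2 and Xbp1 are widely spread within a tissue.

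Spdef (ENSMUSG00000024215.14, GRCm38 chr17:27714352-27728955, minus strand) had normalized counts of 8891, 15689, 11058 and 5375 in SCO replicates 1 to 4. In hippocampus replicates 1 to 5 it had 2.50, 244, 4.13, 0 and 70.8. The lowest SCO library thus lay far above the highest hippocampus library, and the hippocampus libraries ranged from no read to 244 counts. The means were 10253 ± 4315 (SD, n = 4) and 64.3 ± 105 (SD, n = 5), a ratio of means of 159. The log2 fold change was 9.57 (SE 1.45, 95% interval 6.35 to 12.78, limma adjusted p = 0.00594), which exceeds the log of the ratio of means because the log scale weighs the hippocampus libraries near 0. The authors' deposited table gives Spdef a log2 fold change of 7.32 with a standard error of 1.32 and an adjusted p of 1.28e-06. Spdef was called under all 19 alternatives, with edgeR closest to the threshold at an adjusted p of 0.0449.

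Within a tissue, the SD of log2(value + 1) of Spdef was 2.52, above 99.9% of the 1001 tested genes nearest to it in mean, whose median was 0.50. This spread came from the hippocampus, where the SD was 3.28 against 0.65 in the SCO. The genes were matched on the mean over all 9 libraries, which for Spdef is set by the SCO. Its hippocampus mean was 64.3, and genes of low mean spread more, with a median of 2.555 near the mean of Creb3l2. The percentile therefore does not show that Spdef varied unusually for its level in the hippocampus. The hippocampus libraries with the most Spdef, replicates 2 and 5, also had the highest summed hippocampal values of choroid plexus markers (15886 and 8357, against 573 to 3442 in the others) and of meningeal and fibroblast markers (7874 and 11940, against 2165 to 3625). The same held for the ependymal markers (6814 and 9479, against 4119 to 6052). In no other marker list were these replicates the top 2, and the SCO marker sum was highest in hippocampus replicate 1 (3281). Among the SCO libraries, Spdef was lowest in replicate 4, the library with the highest choroid plexus sum. Whether other tissue in the samples contributed to these differences was not tested.

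The RefSeq promoter table (GRCm38.p6) holds windows for 8 of the 10 genes, of which the 250 bases before the transcription start were searched on both strands. The Spdef window, at chr17:27728952-27729201 on the minus strand, is shown because Spdef is the factor that was called. Its capitals mark TGACGTG, a cyclic AMP response element with the extended end that Creb3 family and Xbp1 proteins are known to bind, and GTAAATA, the reverse strand of the forkhead motif TNTTTAC.
Spdef: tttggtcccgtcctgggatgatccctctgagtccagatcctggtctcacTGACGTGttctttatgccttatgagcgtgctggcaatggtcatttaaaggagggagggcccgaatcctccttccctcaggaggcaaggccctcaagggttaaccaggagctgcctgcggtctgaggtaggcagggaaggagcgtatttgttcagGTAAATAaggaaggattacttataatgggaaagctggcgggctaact
The sequence TGACGTG lay 201 to 195 bases before the start, and the forkhead motif 47 to 41 bases before it. TGACGTG, which contains the shorter motifs TGACGT and ACGTG, was present in 1.65% of all 32851 windows of this length and TNTTTAC in 10.9%. A match describes letters only and shows no binding.

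The 3 genes whose pattern over the 9 libraries was most like that of Spdef, by Pearson's r of log2(value + 1) among 14084 genes with a mean of at least 100 normalized counts in the higher tissue, were Fbxo36 (r = 0.986), Il33 (r = 0.974) and Cda (r = 0.971). All 3 share the split between tissues with Spdef, and r is given as a description. Il33, which encodes the cytokine interleukin 33, had means of 3650 ± 1269 in the SCO (SD, n = 4) and 20.5 ± 40.3 in the hippocampus (SD, n = 5). The means of Cda, which encodes cytidine deaminase, were 323 ± 133 and 9.40 ± 13.4. Fbxo36, an F-box protein gene, had 3271 ± 331 and 1058 ± 437, so its difference between tissues was much smaller on the log2 scale (1.71) than those of Il33 (9.25) and Cda (5.60).

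Creb3l1 and Creb3l2 had higher mean values in the SCO, but the difference did not pass the test for either. Both encode membrane-bound factors of the Creb3 family, known as OASIS and BBF2H7, that drive genes of collagen and cargo export in bone and cartilage. Creb3l1 (chr2:91982328-92024502, minus strand) had 73.1, 1171, 268 and 463 normalized counts in SCO replicates 1 to 4 and 0, 190, 110, 273 and 0.381 in hippocampus replicates 1 to 5. SCO replicates 2 and 4 lay above every hippocampus library, while replicates 1 and 3 lay within the hippocampal range. The means were 494 ± 479 (SD, n = 4) and 115 ± 119 (SD, n = 5), and the log2 fold change was 3.75 (SE 1.88, 95% interval -0.42 to 7.91, limma adjusted p = 0.379).

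Creb3l2 (chr6:37327255-37442146, minus strand) had 13.4, 648, 310 and 343 in the SCO libraries and 68.7, 3.30, 6.19, 84.8 and 0 in the hippocampus libraries. SCO replicates 2, 3 and 4 lay above every hippocampus library, and SCO replicate 1 lay among them. The means were 329 ± 259 (SD, n = 4) and 32.6 ± 40.8 (SD, n = 5), and the log2 fold change was 3.98 (SE 1.63, 95% interval 0.36 to 7.59). The unadjusted p was 0.0340 and the limma adjusted p was 0.269, from 0.124 to 0.485 under the 19 alternatives. The authors' deposited table gives Creb3l2 a log2 fold change of 3.33 and an adjusted p of 0.125. The Creb3l2 window, at chr6:37442149-37442398 on the minus strand, is shown beside that of Spdef because it is the only other one of these genes' windows with the shorter core TGACGT, in capitals.
Creb3l2: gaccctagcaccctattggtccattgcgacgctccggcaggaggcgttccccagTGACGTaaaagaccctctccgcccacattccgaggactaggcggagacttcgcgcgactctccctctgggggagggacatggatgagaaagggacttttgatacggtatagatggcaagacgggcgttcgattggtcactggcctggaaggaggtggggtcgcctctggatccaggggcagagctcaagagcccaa
The core lay 196 to 191 bases before the start and was present in 6.47% of all windows.

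Creb3 (chr4:43562332-43567060, plus strand), the founding member of its family, had 6624, 6541, 9713 and 9418 in the SCO and 9501, 12223, 8189, 10605 and 11155 in the hippocampus. The ranges overlapped. The means were 8074 ± 1726 (SD, n = 4) and 10335 ± 1550 (SD, n = 5), with a log2 fold change of -0.37 (SE 0.21, 95% interval -0.83 to 0.10, limma adjusted p = 0.456). Its exons share bases with Tln1 and Gba2 on the other strand, up to 360 bases (15.2%) with one of them, and without a stated strand setting such reads cannot be told apart. The interval of Creb3 excludes a doubling in either direction.

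Xbp1 (chr11:5520659-5525893, plus strand), the factor known for expanding the ER of plasma cells and glands, had 9376, 2995, 463 and 5525 in the SCO and 7541, 3828, 1792, 498 and 8581 in the hippocampus. Both tissues held libraries with few counts and libraries near the top of the range, so the highest was 20.3 times the lowest in the SCO and 17.2 times in the hippocampus. The means were 4590 ± 3802 (SD, n = 4) and 4448 ± 3524 (SD, n = 5), with a log2 fold change of -0.02 (SE 1.00, 95% interval -2.22 to 2.19, limma adjusted p = 0.995). A difference within that interval was not detectable with these libraries. The SD of log2(value + 1) within a tissue was 1.78, above 99.5% of the 1001 genes nearest in mean. The values sum all isoforms, so the spliced form that encodes the active factor was not measured.

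**Figure D2:**
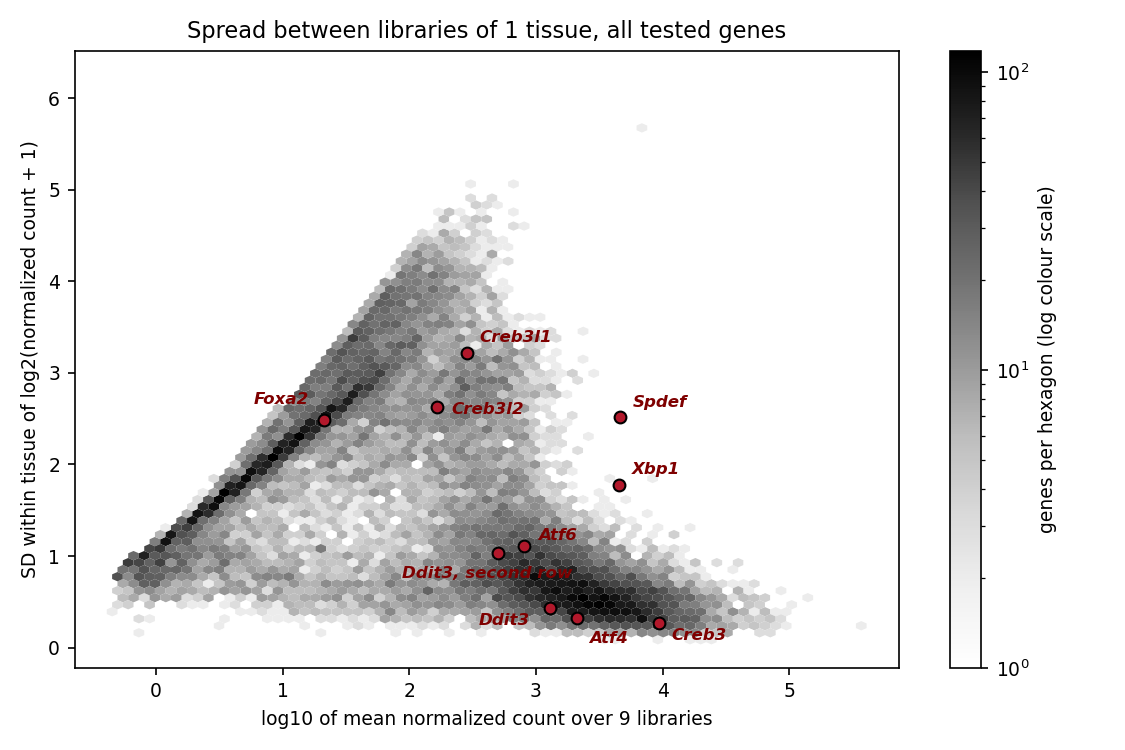
Each hexagon is shaded by the number of tested genes with that mean normalized count (log10, horizontal axis) and that SD of log2(normalized count + 1) within a tissue (vertical axis), and the red points are the rows of the secretory program factors. Spdef (2.52) and Xbp1 (1.78) stand above the bulk of genes of like mean, while Atf4, Ddit3 and Creb3 lie in its lower part. The mean of Spdef is set by the SCO and its spread by the hippocampus, where its mean was low.

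Atf6 (chr1:170704674-170867771, minus strand), which induces ER chaperone genes, had 619, 1358, 1063 and 298 in the SCO and 1182, 503, 190, 1556 and 466 in the hippocampus. The ranges overlapped almost completely. The means were 835 ± 469 (SD, n = 4) and 779 ± 567 (SD, n = 5), with a log2 fold change of 0.24 (SE 0.69, 95% interval -1.27 to 1.76, limma adjusted p = 0.883).

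Atf4 and Ddit3 varied little between libraries. Atf4 (chr15:80255184-80257541, plus strand), the effector of the integrated stress response, had 2777, 1493, 2083 and 1950 in the SCO and 2309, 1562, 2630, 2237 and 1832 in the hippocampus. The values overlapped, with means of 2076 ± 531 (SD, n = 4) and 2114 ± 420 (SD, n = 5) and a log2 fold change of -0.04 (SE 0.29, 95% interval -0.67 to 0.60, limma adjusted p = 0.958). Its spread within a tissue was above only 6.69% of the genes nearest in mean. Ddit3 (ENSMUSG00000025408.15, chr10:127290774-127296288, plus strand), a pro-apoptotic factor of prolonged ER stress, had 1162, 1649, 1473 and 735 in the SCO and 999, 1350, 973, 1625 and 1600 in the hippocampus. These too overlapped, with means of 1255 ± 401 (SD, n = 4) and 1309 ± 314 (SD, n = 5) and a log2 fold change of -0.09 (SE 0.35, 95% interval -0.87 to 0.69, limma adjusted p = 0.918). The intervals of Atf4 and Ddit3 both exclude a doubling in either direction.

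A second row carries the symbol Ddit3 (ENSMUSG00000116429.1, chr10:127290829-127293753, plus strand). Its 105 exon bases all lie within exons of the first, so its counts depend on how the counting treated reads that fit both. It had 257, 1001, 906 and 193 in the SCO and 251, 373, 197, 391 and 957 in the hippocampus, with a log2 fold change of 0.32, an SE of 0.68 and an adjusted p of 0.842 by limma. High and low libraries occurred in both tissues.

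Foxa2 (chr2:148042877-148046969, minus strand) had reads in SCO replicate 4 alone, with 191 normalized counts from 171 reads, and 0 in the other 3 SCO libraries and in all 5 hippocampus libraries. A count of 0 is bounded by 3 reads, or at most 4.95 normalized counts, the value for hippocampus replicate 2. The limma adjusted p was 0.593. The authors' deposited table lists a log2 fold change of 22.62 (SE 3.20) for Foxa2 without a p-value. SCO replicate 4 is the library with the choroid plexus sum of 197891. The floor plate gene Shh had 0 reads in all SCO libraries, while Ferd3l of the same marker list was called higher in the SCO. That list summed to 5572 in SCO replicate 4, to 2774, 9195 and 11658 in SCO replicates 1 to 3, and to 758 to 2355 in the hippocampus. Which cells held the Foxa2 reads was not tested.

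**Figure D3:**
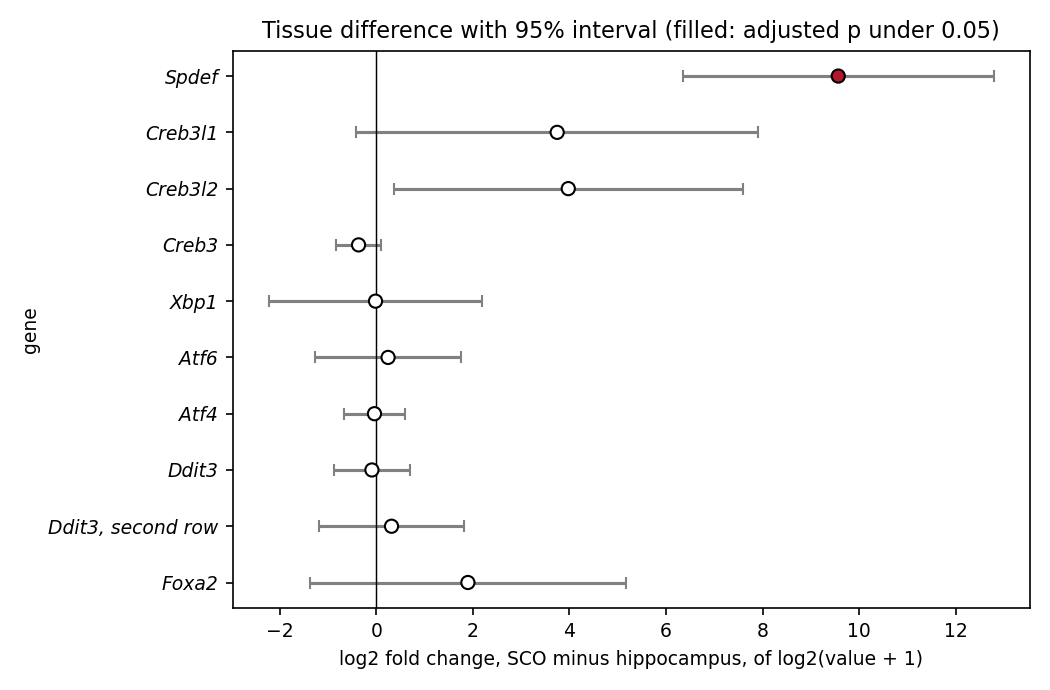
Points give the log2 fold change (SCO minus hippocampus) of each row and lines its 95% interval from limma; the filled point passed an adjusted p of 0.05. The interval of Spdef (6.35 to 12.78) lies far from 0, those of Creb3, Atf4 and Ddit3 are narrow around 0, and those of Creb3l1, Creb3l2, Xbp1 and Foxa2 are wide.

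Per kilobase of exon, the factors spanned levels from among the most abundant mRNAs to near 0. The second Ddit3 row is left out of the following order, because its 105 exon bases all lie within the first; it had 5610 normalized counts per kb in the SCO (range 1834 to 9535) and 4132 in the hippocampus. In the SCO, Spdef had the highest mean of the genes' main rows at 4448 normalized counts per kb (range 2332 to 6806), in percentile 96.8 of tested genes. Creb3 followed with 3404 (range 2758 to 4095), so these neighbours overlapped, and Xbp1 with 1413 (range 143 to 2887), which overlapped Creb3, Atf4 and Ddit3. Atf4 had 880 and Ddit3 733 per kb, again with overlapping ranges. Lower down came Creb3l1 with 190 (range 28.1 to 450), Atf6 with 90.4 (range 32.3 to 147) and Creb3l2 with 45.1 (range 1.84 to 89.0), whose ranges overlapped each other. In the hippocampus, the order of the same rows began with Creb3 (4357 per kb, percentile 96.5), Xbp1 (1370), Atf4 (897) and Ddit3 (764), followed by Atf6 (84.4). There Spdef reached 27.9 per kb, in percentile 34.3, between Creb3l1 (44.1) and Creb3l2 (4.48).

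**Figure D4:**
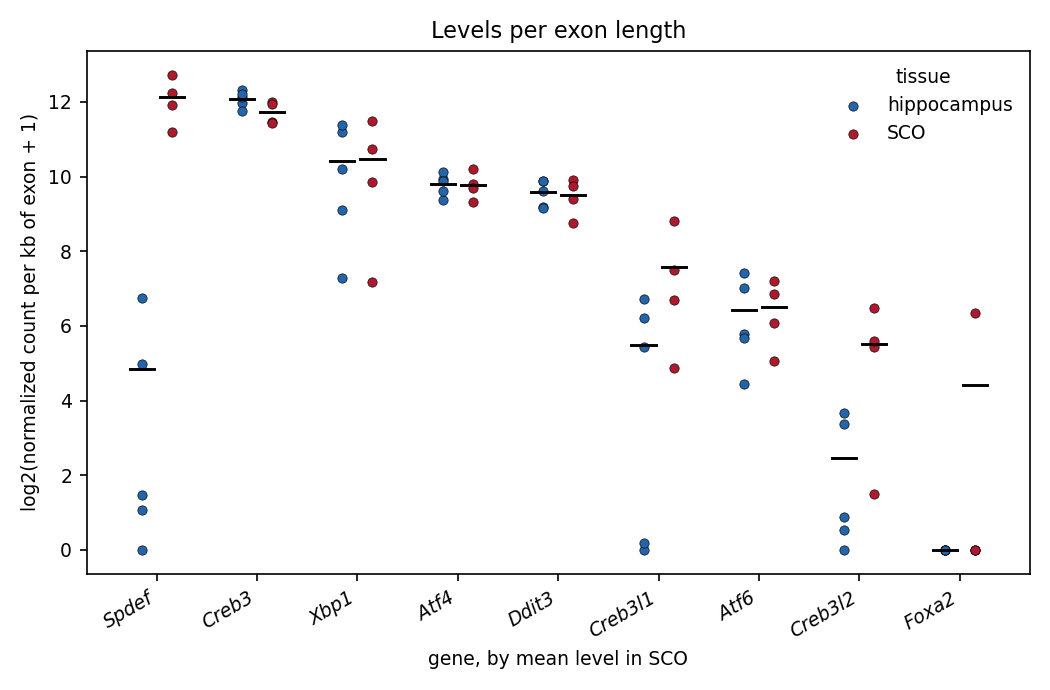
The vertical axis is log2(normalized count per kb of exon + 1) in each library, and bars show the log2 of the mean level per kb plus 1, with genes ordered by their SCO mean. The second Ddit3 row is not shown. Of the rows shown, Spdef has the highest mean in the SCO (4448 per kb) and low in the hippocampus (27.9), whereas Creb3, Xbp1, Atf4 and Ddit3 keep similar positions in both tissues.

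Of 186 listed genes around these factors, 168 were tested. The lists cover related factors, sensors, proteases and other regulators, known targets, and genes of the ventral midline. Of the 168, 6 were called higher in the SCO (3.57%, against 1.71% of all tested genes) and 1 lower (0.595%, against 1.34%). The midline list supplied 2 of the 6 called higher and the 1 called lower. The median log2 fold change was 0.33, against -0.04 over all tested genes. Every SCO library lay above every hippocampus library for 23 of the 168 and below for 7, beside 4.78% and 3.75% of all tested genes. The lists were chosen with earlier results of these data known, and nothing is read from them beyond these counts. Of all tested genes, limma called 1.71% higher and 1.34% lower, and 15.5% had an unadjusted p under 0.05. By DESeq2, 7.06% were higher and 5.75% lower. The counts of each list below are to be read beside these shares. In the following, values after ± are SDs over 4 SCO and 5 hippocampus libraries, in that order.

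Among 11 tested related factors, none was called by limma or edgeR, 3 passed an unadjusted p of 0.05 (27.3%), and DESeq2 called 2 higher. The median log2 fold change was 1.11, or 0.88 with the gene at 0 reads in the hippocampus set to its bound. Creb3l4, a Creb3 family member of prostate and other glands, had 2909, 4210, 2075 and 764 in the SCO and 1.25, 266, 136, 123 and 0 in the hippocampus. The tissues did not overlap, yet the limma adjusted p was 0.0746 (log2 fold change 6.38). Creb3l4 was named after its values were seen.

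The list of sensors and activating proteases also holds other regulators, such as Scap, Insig1, Syvn1, Sel1l and Ppp1r15a. None of its genes passed the test either, with 0 of 16 called by limma and edgeR. DESeq2 called 1 lower, 4 had an unadjusted p under 0.05 (25%), and the median log2 fold change was -0.21. Ern1, which encodes the Ire1 sensor that splices Xbp1 mRNA, had 26.4 ± 31.1 in the SCO and 66.3 ± 76.9 in the hippocampus (limma adjusted p = 0.990). Its epithelial counterpart Ern2 had 96.1 ± 189, of which SCO replicate 3 held nearly all, and 76.4 ± 101 (adjusted p = 0.794). Eif2ak3, which encodes Perk, had 367, 97.5, 379 and 134 in the SCO and 532, 466, 633, 609 and 543 in the hippocampus. Every SCO value of Eif2ak3 lay below every hippocampus value, with a log2 fold change of -1.42 and a limma adjusted p of 0.222. Mbtps1, the Golgi protease that makes the first cut in Atf6 and Creb3 family proteins, had 6023 ± 2052 and 3248 ± 1857 (adjusted p = 0.427), and Mbtps2, which makes the next cut, 1333 ± 659 and 2248 ± 599 (adjusted p = 0.318).

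Of 23 genes with a row that are known as Spdef targets in goblet cells, 18 passed the filter on low values and were tested. None of the 18 was called by limma or edgeR, and 6 passed an unadjusted p of 0.05 (33.3%). Creb3l4, also a related factor, is 1 of the 18. The log2 fold change was above 0 for 15 of the 18 (83.3%), against 48.6% of all tested genes. DESeq2 called 1 of the 18 higher, beside 7.06% of all genes, and the median log2 fold change was 0.82. Agr2, a disulphide isomerase needed for mucin folding, had 169, 1457, 111 and 0 in the SCO and 43.7, 0, 0, 0.731 and 0 in the hippocampus. SCO replicates 1 to 3 lay above all hippocampus libraries and SCO replicate 4 had no read (log2 fold change 4.93, limma adjusted p = 0.278). The gel-forming mucin gene Muc2 had 359 normalized counts in SCO replicate 2, 343 in hippocampus replicate 5 and 0 elsewhere. It was named after its values were seen.

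Of 29 tested targets of the Creb3 family, mostly genes of transport between ER and Golgi, limma called 2 higher (6.90%) and none lower. DESeq2 called 4 higher and 1 lower, and 9 in all had an unadjusted p under 0.05 (31.0%). The median log2 fold change was 0.23. Kdelr3, a receptor that returns escaped ER proteins from the Golgi, had 5579, 6366, 2533 and 4270 in the SCO and 353, 702, 290, 260 and 583 in the hippocampus. Every SCO library was well above every hippocampus library, with means of 4687 ± 1676 (SD, n = 4) and 438 ± 194 (SD, n = 5). The log2 fold change was 3.45 (limma adjusted p = 0.00188), and Kdelr3 was called under all 19 alternatives. The other KDEL receptors, Kdelr1 and Kdelr2, named after their values were seen, had log2 fold changes of 0.27 and 0.11. The coat protein genes that Creb3l2 is known to drive in cartilage were not called by limma: Sec23a had 10923 ± 3019 and 10972 ± 5137 (adjusted p = 0.866), and Sec24d 2077 ± 951 and 603 ± 462 (log2 fold change 2.08, adjusted p = 0.140). DESeq2 called Sec24d higher (adjusted p = 0.0474).

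The Kdelr3 window, at chr15:79516158-79516407 on the plus strand, is shown because it holds the motif seen in the Spdef window, here on the other strand as CACGTCA in capitals.
Kdelr3: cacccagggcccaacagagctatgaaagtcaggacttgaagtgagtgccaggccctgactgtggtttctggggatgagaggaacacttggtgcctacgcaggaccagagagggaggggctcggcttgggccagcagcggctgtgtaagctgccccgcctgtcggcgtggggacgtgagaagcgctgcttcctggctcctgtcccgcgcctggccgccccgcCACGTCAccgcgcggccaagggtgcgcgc
The motif lay 29 to 23 bases before the start. The windows of Sec24d (26 to 20 bases before the start) and Hspa5 (157 to 151) also held TGACGTG, and neither gene was called by limma.

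Of 38 tested Xbp1 targets, genes of protein translocation, glycosylation and folding, limma and edgeR called none, while 9 passed an unadjusted p of 0.05 (23.7%, against 15.5% of all tested genes) and DESeq2 called 1 higher (2.63%, against 7.06% of all genes). The median log2 fold change was 0.39 and 28 of 38 had a value above 0, against 48.6% of all tested genes. Dnajb9, an ER co-chaperone, had 5297 ± 939 in the SCO and 2999 ± 1031 in the hippocampus without overlap (log2 fold change 0.88, limma adjusted p = 0.173).

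Of 17 tested Atf6 targets, limma called 2 higher (11.8%) and none lower, and 4 in all had an unadjusted p under 0.05 (23.5%). The median log2 fold change was 0.38. Hsp90b1, an abundant ER chaperone of the Hsp90 family, had 30690, 31608, 38292 and 38538 in the SCO and 15028, 8728, 15635, 12656 and 19361 in the hippocampus. The lowest SCO value lay above the highest hippocampus value, with a log2 fold change of 1.32 (limma adjusted p = 0.0120). Herpud1, a component of ER-associated degradation that is also in the Creb3 family list, had 15618 ± 3173 and 6912 ± 2096 (log2 fold change 1.22, limma adjusted p = 0.0460). The call of Herpud1 was lost when any SCO library or hippocampus replicate 1, 3 or 5 was left out (adjusted p up to 0.127), with TMM scaling (0.0572), without the filter on low values (0.0615) and with edgeR (0.0800). Hspa5, the chaperone BiP and the best known Atf6 target, had 38765 ± 7325 and 27551 ± 9362 with overlap (log2 fold change 0.57, limma adjusted p = 0.414).

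The Hsp90b1 window, at chr10:86705445-86705694 on the minus strand, is shown because it holds, in capitals, 2 copies of the ER stress response element, searched as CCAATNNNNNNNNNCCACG on both strands.
Hsp90b1: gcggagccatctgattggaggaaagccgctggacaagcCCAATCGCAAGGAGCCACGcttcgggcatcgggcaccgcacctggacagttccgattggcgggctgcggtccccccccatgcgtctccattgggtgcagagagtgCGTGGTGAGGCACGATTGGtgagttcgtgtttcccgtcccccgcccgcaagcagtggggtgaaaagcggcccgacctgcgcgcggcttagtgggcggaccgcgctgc
The copies lay 212 to 194 and 107 to 89 bases before the start, the latter on the other strand. The element was present in 0.113% of all windows, and the window of Hspa5 held 1 copy, 65 to 47 bases before the start.

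Of 40 tested targets of Atf4 and Ddit3, genes of amino acid supply and stress recovery, limma called 1 higher (2.5%) and none lower. DESeq2 called 5 higher and 2 lower, and 9 in all had an unadjusted p under 0.05 (22.5%). The median log2 fold change was 0.27. Slc7a11, the cystine-glutamate exchanger, had 412, 453, 1116 and 335 in the SCO and 144, 39.6, 22.7, 41.3 and 55.6 in the hippocampus. The tissues did not overlap, and the log2 fold change was 3.35 (limma adjusted p = 0.0349). This call was lost when any SCO library or hippocampus replicate 3, 4 or 5 was left out (adjusted p up to 0.116), and with edgeR (0.0779). Asns, asparagine synthetase and a standard Atf4 target, had 7680 ± 1092 and 12159 ± 1717, every SCO value below every hippocampus value (log2 fold change -0.66, limma adjusted p = 0.0941). Trib3, a pseudokinase induced by both factors, had 0, 505, 456 and 265 in the SCO and 0, 0, 0, 5.12 and 0 in the hippocampus (log2 fold change 5.95, limma adjusted p = 0.122). Without SCO replicate 1, which has no read, Trib3 passed the test (adjusted p = 0.00673), and without hippocampus replicate 2 Asns did (adjusted p = 0.0422). DESeq2 called both (0.00242 and 0.00266).

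The Slc7a11 window, at chr3:50443614-50443863 on the minus strand, is shown for its paired copies of TGATGNAA, the composite element that Atf4 is known to bind with C/EBP partners. They are the last 2 runs of capitals, the second on the other strand, and the first run is the forkhead motif TGTTTAC.
Slc7a11: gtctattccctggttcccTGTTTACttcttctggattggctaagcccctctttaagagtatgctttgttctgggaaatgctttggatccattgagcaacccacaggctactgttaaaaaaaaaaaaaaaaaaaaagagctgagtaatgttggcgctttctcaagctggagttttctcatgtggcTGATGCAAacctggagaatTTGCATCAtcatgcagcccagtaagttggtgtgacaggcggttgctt
The copies lay 66 to 59 and 47 to 40 bases before the start. TGATGNAA was present in 3.45% of all windows and in none of those of the factors themselves. The windows of Asns (23 to 16 bases before the start) and Herpud1 (112 to 105) also held it, and Asns was not called by limma.

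In 4 of these target lists 1 hippocampus library stood apart. Hippocampus replicate 2 was the lowest of the 5 hippocampus libraries for 21.02% of all tested genes, but for 10 of 17 Atf6 targets (58.8%), 17 of 38 Xbp1 targets (44.7%), 13 of 29 Creb3 family targets (44.8%) and 17 of 40 Atf4 and Ddit3 targets (42.5%). Without it, the median log2 fold changes were 0.20 for the Atf6 targets, 0.30 for the Xbp1 targets, 0.18 for the Creb3 family targets and 0.05 for the Atf4 and Ddit3 targets, beside -0.02 for all tested genes. Kdelr3, Hsp90b1, Herpud1 and Slc7a11 were still called without it, and over all lists 8 genes were then called higher and 4 lower. The library was singled out after its values were seen.

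**Figure D5:**
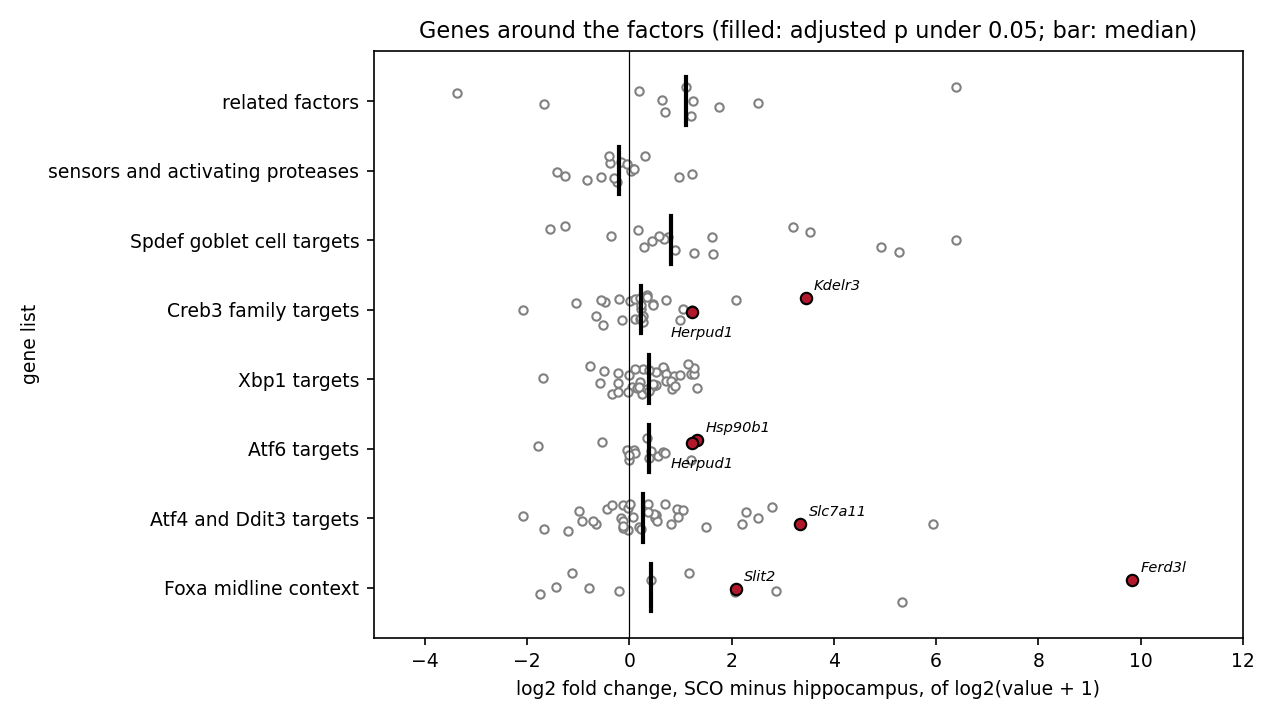
Each point is a tested gene of the list named on the vertical axis, placed by its log2 fold change (SCO minus hippocampus), filled where the limma adjusted p was under 0.05; bars are list medians. The called genes shown are named, 1 tested gene of the midline list is not shown, and most genes lie within a few log2 units of 0, with list medians from -0.21 to 1.11.

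Of 13 tested genes of the ventral midline, where Foxa1 and Foxa2 act with Shh, limma called 2 higher and 1 lower in the SCO, against 1.71% and 1.34% of all tested genes, with a median log2 fold change of 0.43. The 2 called higher are described. Ferd3l, a basic helix-loop-helix factor of the midbrain floor plate, had 1556, 2072, 1121 and 413 in the SCO and 1 read in all hippocampus libraries together (1.65 normalized counts in replicate 2, limma adjusted p = 0.000562). Slit2, a midline repellent of axons, had 4353 ± 732 and 1071 ± 365 without overlap (log2 fold change 2.08, limma adjusted p = 0.00674). Shh had 0 reads in all SCO libraries and 48.5 normalized counts in hippocampus replicate 3 alone. Of 7 floor plate and ventral midbrain markers with a row, Shh and Slc6a3 were at 0 in all SCO libraries and Corin in all hippocampus libraries, and the summed list was 2774 to 11658 in the SCO against 758 to 2355 in the hippocampus.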

How the data were processed

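Total RNA of 9 P0 samples was sequenced, and 12 samples from P60 are not analysed here. Per the submitters' processing notes, FastQC, HISAT, HISAT2, featureCounts and DESeq2 were used with build GRCm38. For the versions, the annotation and the strand setting, nothing is stated in the labels or notes used. The deposited library values are a normalized signal, read counts divided by 1 size factor per library. Dividing by the value of 1 read gave whole reads for 100% of values (tolerance 1e-06), with 35379988 to 151009954 reads per library. Bounds of 3 reads cover counting error only. The authors' comparison was deposited as log2 fold changes, a test statistic (a score) and p-values, per the file headers. All columns belong to this series (0 from another).

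The 10 genes and all lists were chosen with earlier results of these data known. As the values are normalized, limma-trend (limma 3.58.1, R 4.3.3) was fitted to log2(value + 1) of the 28150 genes whose mean reached 1 in one of the tissues, without covariates, and p-values were Benjamini-Hochberg adjusted. Alternatives, 19 in all, were other pseudocounts (0.5, 10), filters (none, 10), TMM scaling, robust moderation, edgeR 4.0.16 and DESeq2 1.42.0 on the recovered reads, each of the 9 libraries left out, SCO replicate 4 and hippocampus replicate 2 left out together, and the replicate number as a block. The fits were also run on simulated data, with the spread typical of genes of like mean and not that of each gene. No result here rests on that run. Named genes were all members, called list members (at most 6 a list), 14 preset pathway genes, and the 3 genes most like each called member. A gene that the rule takes is not reported here, though the counts include it. Positions and exon lengths come from GENCODE M21 (31302 of 31883 versioned identifiers matched; that of Xbp1 matched without its version), and promoters from RefSeq. Python 3.11.15 and matplotlib 3.10.9 drew the figures.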

Additional observations from a re-analysis of the deposited data

Results flagged for a closer look

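In 20 groups of libraries, each holding 1 row of a factor in 1 tissue, 3 had a library set apart from the rest by a gap that is large for the group's range. Chance alone sets apart about 1 in 20 groups if values are normally distributed. The normalized counts used here need not be, so the number to be set apart by chance is not known. Foxa2 in the hippocampus, with no reads, could not be flagged. Spdef had 244 normalized counts in hippocampus replicate 2, the highest of the 5 hippocampus libraries, with a gap of 0.7103 of the range against a critical value of 0.71. The second Ddit3 row (ENSMUSG00000116429.1) had 957 in hippocampus replicate 5, with a gap of 0.7445 of the range. Foxa2 had 191 in SCO replicate 4, where the other 3 SCO libraries were at 0, so the gap was the whole range (critical value 0.829). Spdef was called without hippocampus replicate 2 as well. The causes of the 3 values were not tested.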

How the results depend on the processing

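Spdef was the only one of the 10 rows called under each of the 19 alternatives, with log2 fold changes of 7.32 to 10.91 and adjusted p-values of 7.31e-05 to 0.0449. The count of all called genes was 859. It was 2708 with DESeq2, 503 with edgeR, 180 with the replicate block, and 498 to 1077 when 1 library was left out, with 564 without SCO replicate 3, 565 without hippocampus replicate 1 and 498 without hippocampus replicate 3. Of the listed pathway genes, 6 were called higher, but 18 with DESeq2, 2 with the replicate block and 4 to 8 with 1 library left out. Called lower were 1, but 5 with DESeq2, 4 without SCO replicate 4 and hippocampus replicate 2 together, and 1 to 4 with 1 library left out (4 without hippocampus replicate 2). The cause of these shifts was not tested. The deviations of same-numbered samples from their tissue means had correlations of -0.03 to 0.02, so the numbers gave no sign of pairing. Over all pairs the highest was 0.06, for SCO replicate 3 and hippocampus replicate 4. Such correlations between different tissues cannot exclude shared animals, and whether any were shared was not tested. Under the replicate block, over replicates 1 to 4, Spdef had a log2 fold change of 10.19 (adjusted p = 0.0297), and the calls of Hsp90b1 (0.0539), Slit2 (0.0659), Herpud1 (0.138) and Slc7a11 (0.173) were lost.

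Some log2 fold changes that were not called, most of them near 0, changed sign, and their direction is not read. Xbp1 had 0.0148 with edgeR, 0.0451 with DESeq2, 0.37 with the replicate block and -0.66 to 0.87 with 1 library left out. For Ern1 the values were -0.49 with a pseudocount of 10, -1.35 with edgeR, -1.32 with DESeq2, -0.39 with the pair of libraries left out, -0.69 with the block and -0.96 to 0.84 with 1 library left out. Ern2 had -1.26 in the main fit and -3.20 to -0.34 with 1 library left out, but 0.33 with edgeR and DESeq2 and 0.53 without the pair. Sec23a had -0.0379 with edgeR, -0.0065 with DESeq2, -0.40 without the pair and -0.32 to 0.44 with 1 library left out. Ddit3 had 0.16 without the pair. With 1 library left out, Ddit3 ran from -0.24 to 0.14, Atf6 from -0.17 to 0.67, Atf4 from -0.19 to 0.11 and the second Ddit3 row from -0.0580 to 0.73. A gene at 0 reads is bounded by 3 reads per library.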

Other observations

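The following values were picked after they were seen and are given as values. Xbp1 was lowest among the SCO libraries in replicate 3 (463), and so were 10 of the 38 tested Xbp1 targets (26.3%), beside 18.01% of all tested genes. The share was 34.5% for the Creb3 family targets, 27.5% for the Atf4 and Ddit3 targets, 27.3% for the related factors and 23.5% for the Atf6 targets. It was 23.1% for the midline genes. Below the share of all tested genes were the sensors and proteases (12.5%) and the Spdef goblet cell targets (5.56%). Among the Xbp1 targets, Serp1, a protein of the ER translocation site, had 640 in that library against 12928 to 19374 in the other 3 SCO libraries. Creld2, an ER stress protein, had 470 there against 3113 to 5531. Chac1, an Atf4 target that degrades glutathione, had 0.913 there against 589 to 674. Without hippocampus replicate 2, Pdia4 and Spcs2 were called higher in the SCO in addition to the 6 genes above, and Arf4, Asns and Nars lower.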
